A study of Homo sapiens with 6 samples.

Results

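The genes of DNA replication and of the passage from G1 to S phase were followed in clones of the breast cancer line MDA-MB-231 with and without knockdown of WASF3. The set holds 43 genes chosen by name for their place in this pathway, without reference to a threshold on the measured values. Earlier results of these data were known when they were chosen. All 43 were measured, among 19775 genes with an array probe set of their own. WASF3 belongs to the WAVE family, which drives actin branching.

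The knockdown group was 3 single clones of cells infected with a retroviral pSM2 vector carrying 1 of 2 short hairpin RNAs against WASF3. The control group was 3 single clones infected with the empty vector or with a hairpin against GFP. Which hairpin or vector each clone carries is not given in the labels, so hairpin and clone cannot be told apart. All 6 were puromycin-resistant, at passage 4, grown in RPMI medium with 10% fetal bovine serum and selected for 2 weeks in 1.0 µg/ml puromycin. Each value is 1 Affymetrix 3′ expression array of 1 clone, so a group difference rests on 3 clones against 3, and a value for 1 clone has no replicate. Levels are log2 RMA signals, a normalised hybridisation brightness. A difference of 1 on this scale is a doubling of the signal, and levels of different probe sets are not comparable with each other.

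A chromosome is copied in steps. In G1 the origin recognition complex, CDC6 and CDT1 load the MCM2 to MCM7 ring onto DNA, which licenses an origin. CDC45 and the GINS complex, with MCM10, turn the ring into an active helicase, and polymerases then extend DNA behind it with the sliding clamp PCNA. Entry into S phase is gated by cyclin D with CDK4 or CDK6 and by cyclin E with CDK2. These kinases phosphorylate RB1 and free E2F factors, which raise transcription of most of the genes above, while CDKN1A (p21) and CDKN1B (p27) restrain the kinases. In breast cancer lines, as in other cells, most of these transcripts are known to be more abundant in cycling than in resting cells.

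WASF3 itself read 5.40, 5.80 and 4.52 in knockdown clones 1, 2 and 3, against 6.77, 6.42 and 6.59 in control clones 1, 2 and 3 (adjusted p = 0.102, limma). The groups did not overlap, and clone 3 kept the least signal, 23.8% of the control mean, against 43.8% in clone 1 and 57.5% in clone 2. Markers of the line were bright, from 10.6 for EGFR to 14.2 for VIM and LGALS1 as means over the 6 arrays. They differed between clones, and S100A4 stood at 90.0%, 20.9% and 19.7% of the control signal in knockdown clones 1, 2 and 3. In clone 3 EGFR stood at 220%, KRT18 at 52.6% and CD44 at 58.6%. VIM, LGALS1, ANXA1 and MET lay between 87.6% and 108% there. The 8 hormone receptor and luminal markers averaged between 3.18 for FOXA1 and 11.4 for KRT19, and the 11 measured leukocyte markers between 3.23 and 6.30. The 8 fibroblast and endothelial markers averaged between 3.12 and 7.39 for PECAM1, which stood at 42.4% of control in clone 3. The 5 measured keratinocyte markers averaged between 3.34 and 11.1 for KRT10. Of the luminal markers, CDH1 read 7.33, 4.44 and 4.47 in the knockdown clones, against 5.19, 4.59 and 5.05 in the control clones, high in clone 1. An index of RNA quality, the 3′ minus 5′ signal of the GAPDH and ACTB control probe sets, was 2.11, 1.62 and 1.66 in the knockdown clones, against 1.13, 1.47 and 1.26 in the control clones. The 2 groups did not overlap in this index (exact permutation test, two-sided, p = 0.1, the smallest that 3 against 3 allows).

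The knockdown clones did not move together. In clones 1 and 2 most replication and G1/S genes lay above the control level, with CDC6 at 202% and 203% of the control signal. In clone 3 nearly all lay below it, with cyclin E2 (CCNE2) at 33.3% and the ribonucleotide reductase subunit RRM2 at 42.4%. The median over the 43 genes was 0.18 in knockdown clone 1, 0.17 in clone 2 and −0.41 in clone 3, each as the clone minus the mean of the 3 control clones. Over all genes the same medians were 0.0030, −0.015 and −0.020. Of the 43 genes, 14 lay below the control mean in clone 1, 10 in clone 2 and 38 in clone 3, or 32.6%, 23.3% and 88.4%, where all genes gave 49.4%, 52.7% and 53.3%. These 3 comparisons share the same control clones. In these bulk samples, fewer cells in cycle and less RNA of these genes per cell cannot be told apart.

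**Figure D1:**
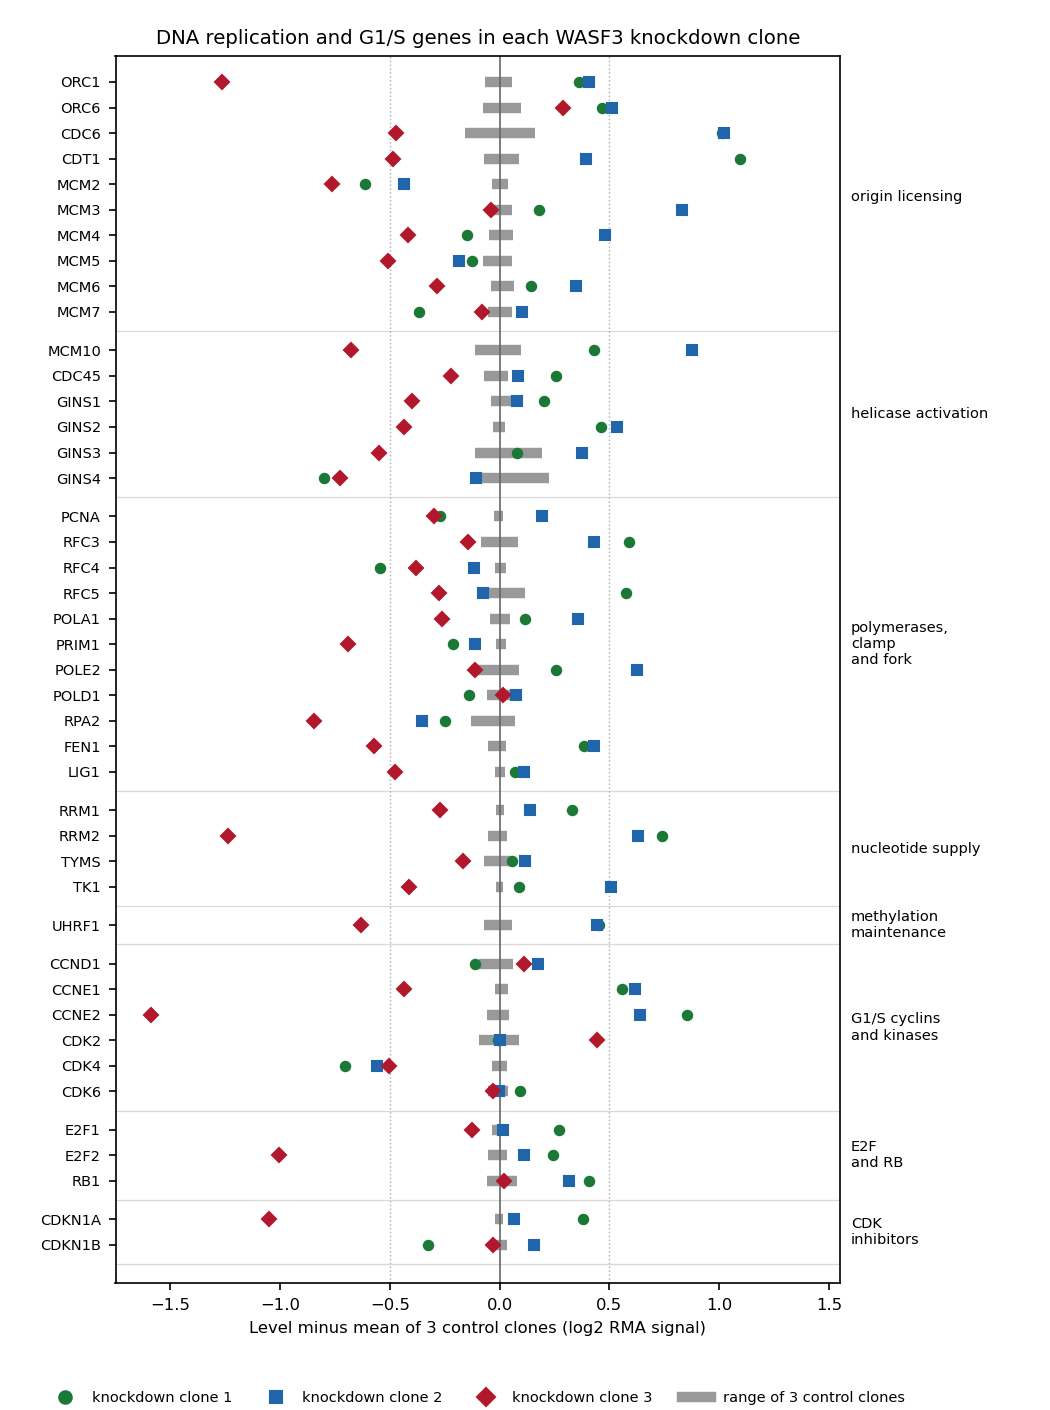
Level in each knockdown clone minus the mean of the 3 control clones (log2 RMA signal, horizontal axis) for each of the 43 genes, grouped by role. Grey bars span the 3 control clones and dotted lines mark 0.5 log2. Clone 3 (diamonds) lies left of 0 for 38 genes, while clones 1 (circles) and 2 (squares) lie left of it for 14 and 10.

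The control clones lay close together on the same genes. Set against the mean of the other controls, control clones 1, 2 and 3 had medians of −0.0016, −0.0038 and 0.03 over the 43 genes. The largest single distance was 0.34, and no gene reached 0.5 log2. The SD between the knockdown clones had a median of 0.33 over the 43 genes, against 0.06 between the control clones. Over all genes these medians were 0.16 between knockdown clones and 0.08 between control clones. Among the 11139 genes at least as bright as the dimmest gene of the set, they were 0.21 and 0.06.

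Knockdown clones could also be compared with each other, without any control array. Clone 2 lay above clone 3 for 41 of the 43 genes, with a median difference of 0.58, and the exceptions were the kinases CDK2 and CDK4. Clone 1 lay above clone 3 for 35 genes, with a median of 0.48. Clone 1 minus clone 2 had a median of −0.05. Over all genes the medians of these 3 differences were −0.0027, 0.02 and 0.02. Between pairs of control clones the medians over the 43 genes were between −0.04 and −0.0088. The RNA quality index of clones 1, 2 and 3 was 2.11, 1.62 and 1.66, and its part in these differences was not tested.

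A gene was counted as past the fold in a clone when it lay at least 0.5 log2 from the control mean and outside the range of the 3 control clones. With 1 array a clone this is a rule of size and no test. In knockdown clone 1, 7 of the 43 genes were higher by this rule (16.3%), where 5.20% of all genes were, and 4 were lower (9.30%), where 3.94% were. In clone 2, 10 were higher (23.3%, all genes 6.73%) and 1 was lower (2.33%, all genes 3.63%). In clone 3, 0 were higher (all genes 7.22%) and 15 were lower (34.9%, all genes 7.34%).

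Those higher in clone 1 were the licensing factors CDC6 and CDT1, the clamp loader subunits RFC3 and RFC5, RRM2 and both E cyclins, CCNE1 and CCNE2. Those lower there were MCM2, GINS4, RFC4 and CDK4. The genes higher in clone 2 were ORC6, CDC6, MCM3, MCM10, GINS2, the polymerase epsilon subunit POLE2, RRM2, thymidine kinase TK1, CCNE1 and CCNE2, and CDK4 was lower. In clone 3 the lower genes came from every role. They were ORC1, MCM2 and MCM5 of licensing, and MCM10, GINS3 and GINS4 of helicase activation. The primase PRIM1, the single-strand binding subunit RPA2, the flap endonuclease FEN1, RRM2 and UHRF1, which guides maintenance methylation to new DNA, followed. CCNE2, CDK4, E2F2 and the inhibitor CDKN1A completed the 15.

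**Figure D2:**
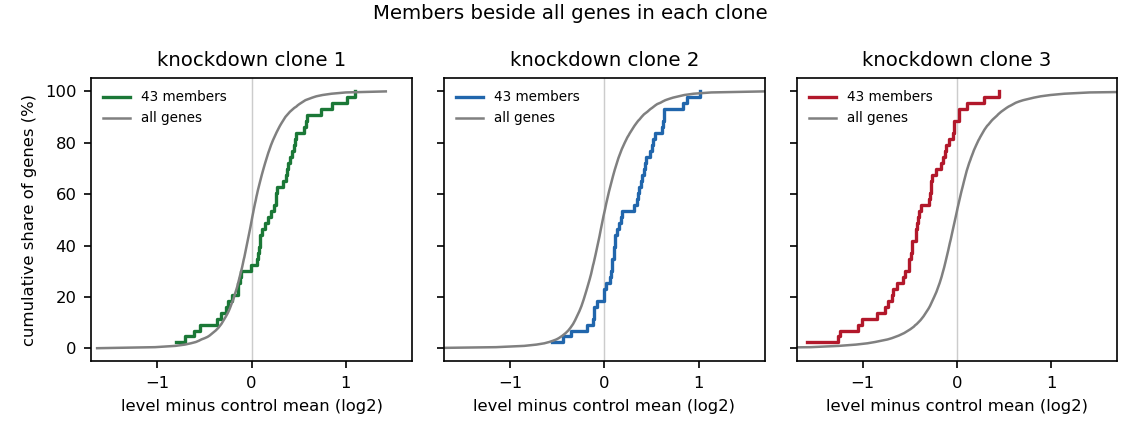
Cumulative share of genes (percent, vertical axis) against the level minus the control mean (log2, horizontal axis) in each knockdown clone, for the 43 genes (coloured steps) and all 19775 genes (grey). The coloured steps run right of the grey curve over most of their length in clones 1 and 2 and left of it in clone 3 outside the lowest tail, with medians of 0.18, 0.17 and −0.41.

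The promoters of the set are shown because E2F factors act on many of these genes. RefSeq promoter windows of GRCh38.p14, from 250 bases before to 50 bases after each start, were matched for 36 of the 43 genes. MCM4, MCM5, GINS4, RPA2, CCND1, CCNE2 and CDK2 were not matched. An E2F-type motif (TTTCCCGC, TTTCGCGC, TTTGCCGC or TTTGGCGC, either strand, overlapping matches in a window counted as 1 promoter) stood in a window of 18 of the 36 genes (50%), where 3.99% of 27305 genes and 3.31% of 35116 windows held it. The CHR element (TTTGAA or TTCGAA, either strand) stood in 2 of the 36 (5.56%), where 19.5% of genes and 16.4% of windows held it. The set was named for a pathway on which E2F factors act. A high share of the E2F-type motif could be foreseen from that choice and is no result about these clones. The comparison took all genes with RefSeq promoter windows, not the 19775 measured genes, and was not matched for base content. The 100 bases before the start are given 5′ to 3′ on the strand of the gene, with the E2F-type motif in capitals, for 4 genes of different roles that were past the fold in a clone, and for CDK4, whose window holds none.
CDT1 (chr16:88803689-88803788, plus strand, motif from base −35): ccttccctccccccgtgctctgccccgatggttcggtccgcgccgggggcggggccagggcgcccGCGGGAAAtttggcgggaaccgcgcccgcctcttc
GINS2 (chr16:85688955-85689054, minus strand, motif from base −31): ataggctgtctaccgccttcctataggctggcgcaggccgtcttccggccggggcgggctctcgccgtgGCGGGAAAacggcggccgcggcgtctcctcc
UHRF1 (chr19:4909401-4909500, plus strand, motif from base −14): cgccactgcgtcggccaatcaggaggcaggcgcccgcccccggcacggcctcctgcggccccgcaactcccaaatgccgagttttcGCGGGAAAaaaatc
E2F2 (chr1:23531234-23531333, minus strand, motif from base −42): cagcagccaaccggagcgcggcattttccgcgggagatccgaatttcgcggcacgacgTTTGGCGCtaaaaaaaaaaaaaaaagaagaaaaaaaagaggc
CDK4 (chr12:57752311-57752410, minus strand): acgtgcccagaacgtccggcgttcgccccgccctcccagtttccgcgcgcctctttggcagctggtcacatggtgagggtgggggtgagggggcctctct

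Beside these sequences, CDT1, GINS2, UHRF1, E2F2 and CDK4 stood at 71.4%, 73.8%, 64.5%, 49.9% and 70.5% of the control signal in knockdown clone 3. Over the 18 genes with the motif the medians of clones 1, 2 and 3 were 0.19, 0.35 and −0.35, and over the 18 matched genes without it they were 0.35, 0.15 and −0.40. ORC1, RRM2 and CDKN1A, which were low in clone 3, were among those without these letters in their windows.

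CCNE2, the cyclin E2 that activates CDK2 at the G1/S border, spread the most. It read 9.93, 9.72 and 7.49 in knockdown clones 1, 2 and 3, against 9.10, 9.12 and 9.02 in control clones 1, 2 and 3. Clones 1 and 2 lay above all controls at 181% and 156% of their mean, and clone 3 lay far below them. The group means were almost equal, 9.05 ± 1.35 in knockdown and 9.08 ± 0.05 in control clones (SD, n = 3 each), and the change of −0.03 (SE 0.58) did not pass limma's test (adjusted p = 0.989). A dimmer probe set of CCNE2 gave 0.80, 0.93 and −1.17 relative to control in clones 1, 2 and 3, the same pattern. The other E cyclin, CCNE1, read 8.74, 8.81 and 7.75 in the knockdown clones, against 8.17, 8.23 and 8.16 in the control clones. It too lay above all controls in clones 1 and 2 and below all of them in clone 3 (change 0.25, SE 0.26, adjusted p = 0.739, limma).

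RRM2, the regulated subunit of ribonucleotide reductase, which makes deoxyribonucleotides, read 12.46, 12.35 and 10.48 in the knockdown clones, against 11.67, 11.74 and 11.75 in the control clones. Clones 1 and 2 stood at 167% and 155% of the control signal and clone 3 at 42.4%, and the change of 0.04 (SE 0.48) did not pass (adjusted p = 0.981, limma). The other probe set of RRM2 had the same signs, 0.48, 0.86 and −0.59. Of the other genes of nucleotide supply, the large subunit RRM1 gave 0.33, 0.14 and −0.27 relative to control in clones 1, 2 and 3. Another RRM1 probe set gave −0.44, 0.44 and 0.07, the opposite sign in clones 1 and 3. TK1, which salvages thymidine, gave 0.09, 0.51 and −0.41. Its other probe set gave −0.55 in clone 1, so the level of TK1 there is uncertain. On its brightest probe set, thymidylate synthase TYMS stayed within 0.17 of control in every clone, and another gave −0.56, 0.0029 and −0.39. UHRF1 read 11.13, 11.12 and 10.04 in the knockdown clones, against 10.69, 10.60 and 10.74 in the control clones. It followed RRM2, high in clones 1 and 2 and low in clone 3 (change 0.09, SE 0.28, adjusted p = 0.926, limma).

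**Figure D3:**
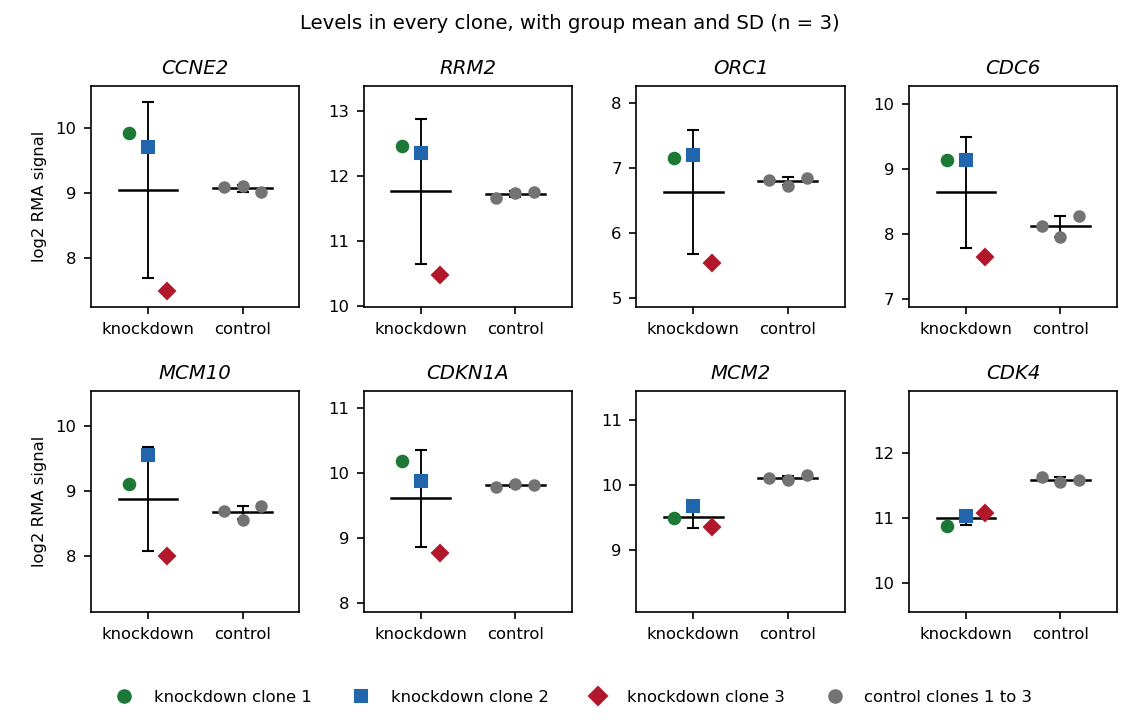
Level (log2 RMA signal, vertical axis, the same height in every panel) of 8 genes in each clone, with horizontal lines for the group mean and bars for the SD (n = 3). In the first 6 panels clone 3 (diamond) lies below the controls while clones 1 and 2 lie above them, and for MCM2 and CDK4 all 3 knockdown clones lie below the controls.

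Among the licensing genes, ORC1, the origin recognition subunit that varies over the cell cycle, read 7.16, 7.20 and 5.53 in the knockdown clones, against 6.81, 6.73 and 6.85 in the control clones. It was past the fold in clone 3 alone, at 41.6% of control (change −0.17, SE 0.41, adjusted p = 0.902, limma). CDC6, which recruits the MCM ring, read 9.13, 9.14 and 7.65 in the knockdown clones, against 8.12, 7.96 and 8.28 in the control clones. Clones 1 and 2 lay above all controls and clone 3 below them, on both probe sets of the gene (change 0.52, SE 0.38, adjusted p = 0.606, limma).

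CDT1, the partner of CDC6 in loading, read 8.20, 7.50 and 6.62 in the knockdown clones, against 7.04, 7.20 and 7.09 in the control clones. Clones 1 and 2 were again high and clone 3 low (change 0.33, SE 0.34, adjusted p = 0.733, limma). Its other probe set gave −0.0016, 0.08 and −0.23 relative to control, so the high value in clone 1 rests on 1 probe set. ORC6 read 10.51, 10.55 and 10.33 in the knockdown clones, against 10.02, 10.14 and 9.96 in the control clones. All 3 knockdown clones lay above all controls, clone 3 included, and the change of 0.42 (SE 0.10) did not pass (adjusted p = 0.121, limma).

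The MCM ring did not move as a unit. MCM3 read 10.82, 11.47 and 10.60 in the knockdown clones, against 10.63, 10.59 and 10.70 in the control clones, high in clone 2 and within the control range in clone 3 (change 0.32, SE 0.21, adjusted p = 0.553, limma). MCM2 read 9.50, 9.67 and 9.35 in the knockdown clones, against 10.11, 10.08 and 10.15 in the control clones. Every knockdown clone lay below every control clone, and the group difference left 65.8% of the control signal. The group means were 9.51 ± 0.16 in knockdown and 10.1 ± 0.04 in control clones (SD, n = 3 each). The change of −0.60 (SE 0.11) missed the threshold (adjusted p = 0.0621 in limma, exact permutation p = 0.1). It passed without knockdown clone 3 (−0.52, adjusted p = 0.0295). MCM5 lay below all controls in every knockdown clone, at −0.13, −0.18 and −0.51 relative to their mean in clones 1, 2 and 3. MCM4 gave −0.15, 0.48 and −0.42, MCM6 0.14, 0.35 and −0.29, and MCM7 −0.37, 0.10 and −0.08. These 3 were highest in clone 2, and their knockdown clones lay on both sides of the control range. Another MCM4 probe set gave 0.25 in clone 1, the opposite sign, while the rest gave −0.02, −0.37 and −0.13. The other MCM7 probe set gave 0.03 there, also the opposite sign.

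Of helicase activation, MCM10 read 9.11, 9.55 and 7.998 in the knockdown clones, against 8.69, 8.56 and 8.77 in the control clones. Clones 1 and 2 lay above the controls and clone 3 below them, on all 3 probe sets (change 0.21, SE 0.35, adjusted p = 0.847, limma). GINS2 differed from control by 0.46, 0.53 and −0.44 in clones 1, 2 and 3, and CDC45 by 0.26, 0.08 and −0.22. Another GINS2 probe set gave −0.21, −0.22 and −0.09, and the GINS2 change of 0.19 was −0.17 without probe sets matching several transcripts. The GINS subunits GINS1 and GINS3 were likewise lowest in clone 3, at −0.40 and −0.55. GINS4 read 5.23, 5.92 and 5.30 in the knockdown clones, against 6.25, 5.90 and 5.94 in the control clones, with clones 1 and 3 low and clone 2 among the controls (change −0.55, SE 0.20, adjusted p = 0.274, limma). Another GINS4 probe set gave 0.28 in clone 1 and −0.91 in clone 3, so only the low value in clone 3 was shared between them. As medians over the 6 genes of this role, clones 1, 2 and 3 stood at 0.23, 0.23 and −0.49.

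The polymerases, clamp and fork proteins lay closer to control, with medians of 0.07, 0.11 and −0.30 over 11 genes in clones 1, 2 and 3. RPA2, a subunit of the complex that coats single-stranded DNA, read 9.75, 9.64 and 9.15 in the knockdown clones, against 10.07, 9.87 and 10.05 in the control clones. It was low in every knockdown clone, most in clone 3 (change −0.48, SE 0.16, adjusted p = 0.246, limma). The primase subunit PRIM1 differed from control by −0.21, −0.11 and −0.69, and the clamp loader subunit RFC4 by −0.54, −0.12 and −0.38, without overlap of the groups. PCNA gave −0.27, 0.19 and −0.30. The clamp loader subunit RFC3 gave 0.59, 0.43 and −0.14, and RFC5 gave 0.58, −0.08 and −0.27. Of their other probe sets, those of RFC3 gave 0.24 and −0.06 in clone 1 and 0.02 and 0.22 in clone 3. Those of RFC5 gave 0.98 and −0.23 in clone 1, so the high values of both genes in clone 1 were not shared by all probe sets. POLA1, the catalytic subunit of the priming polymerase alpha, gave 0.11, 0.36 and −0.26, and POLE2 gave 0.26, 0.62 and −0.11. On the brightest probe sets, clone 3 was the lowest for each of these 5 genes. FEN1, which trims Okazaki fragments, and LIG1, which seals them, lay at 0.38 and 0.07 in clone 1, at 0.43 and 0.11 in clone 2 and at −0.57 and −0.48 in clone 3, while the catalytic subunit POLD1 of polymerase delta lay at 0.02 there. Another FEN1 probe set gave −0.09, 0.59 and −0.74.

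Counted over the whole set, 1 gene (ORC6) lay above all controls in every knockdown clone, where 12.1% of all genes did. Another 6 lay below all controls in every knockdown clone (MCM2, MCM5, RFC4, PRIM1, RPA2 and CDK4), or 14.0%, close to the 12.6% of all genes.

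CDK4 was the member of the set that differed between the groups by limma's test. The kinase, which pairs with D cyclins and phosphorylates RB1, read 10.88, 11.03 and 11.08 in the knockdown clones, against 11.62, 11.55 and 11.59 in the control clones. All 3 knockdown clones were low, and the groups did not overlap. CDK4 fell to 11.0 ± 0.10 in knockdown clones, against 11.6 ± 0.04 in control clones (SD, n = 3 each), or 66.4% of the control signal. The change was −0.59 (SE 0.09, adjusted p = 0.0491 in limma, exact permutation p = 0.1). In the set, 0 genes were called higher, where 0.319% of all genes were, and 1 was called lower, where 0.420% were. Before adjustment, 1 gene of the set was higher at p under 0.05 (ORC6) and 5 were lower, of 1801 and 1516 over all genes. The call of CDK4 was lost without knockdown clone 2 (adjusted p = 0.0899), without control clone 1, 2 or 3 (0.300, 0.277 and 0.274) and when the RNA quality index entered the fit (change −0.43, adjusted p = 0.320). It rests on 1 probe set, of the kind matching several transcripts.

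Cyclin D1 and CDK6, also of the G1/S gate, had ranges of 0.29 and 0.12 between the knockdown clones on their brightest probe sets. Cyclin D1 (CCND1), the partner of CDK4 and CDK6, read 10.92, 11.21 and 11.15 in the knockdown clones, against 11.10, 11.07 and 10.95 in the control clones. Its knockdown clones lay on both sides of the control range (change 0.06, SE 0.11, adjusted p = 0.863, limma). Another probe set of CCND1 gave −0.34, 0.02 and −0.30 relative to control. CDK6 stayed within 0.09 of control in every clone on that probe set, and another probe set gave −0.31 in clone 1. CDK2, the kinase of cyclin E, read 9.51, 9.51 and 9.95 in the knockdown clones, against 9.52, 9.42 and 9.60 in the control clones. It was high in clone 3, the clone where both E cyclins were low. Another CDK2 probe set gave −0.41, 0.06 and 0.25.

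E2F1, an activating E2F, read 8.39, 8.14 and 7.995 in the knockdown clones, against 8.12, 8.16 and 8.09 in the control clones, with clone 1 high and clone 3 low (change 0.05, SE 0.12, adjusted p = 0.888, limma). Another E2F1 probe set gave −0.0089, −0.06 and −0.40, so only the low value in clone 3 was shared. E2F2 read 7.18, 7.05 and 5.93 in the knockdown clones, against 6.96, 6.97 and 6.88 in the control clones. It was slightly high in clones 1 and 2 and low in clone 3, at 49.9% of the control signal (change −0.22, SE 0.30, adjusted p = 0.808, limma). Other E2F2 probe sets, dim with means of 4.45 and 3.99, gave 0.04 and −0.0023 in clone 3. The low value there rests on the brightest probe set. RB1, the pocket protein that holds E2F factors, read 9.50, 9.41 and 9.12 in the knockdown clones, against 9.18, 9.08 and 9.04 in the control clones. It was high in clones 1 and 2 and within the control range in clone 3 (change 0.25, SE 0.12, adjusted p = 0.416, limma). A dim RB1 probe set (mean 4.55) gave −0.32, 0.0018 and −0.11 relative to control.

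The inhibitors did not share a pattern. CDKN1A (p21) read 10.19, 9.87 and 8.76 in the knockdown clones, against 9.79, 9.83 and 9.82 in the control clones. It was high in clone 1 and low in clone 3, at 48.3% of control (change −0.20, SE 0.33, adjusted p = 0.841, limma). CDKN1B (p27) read 10.04, 10.52 and 10.33 in the knockdown clones, against 10.36, 10.39 and 10.33 in the control clones, low in clone 1 and within the control range in clone 3 (change −0.07, SE 0.13, adjusted p = 0.870, limma). Clone 3 had low p21 together with low CCNE2, ORC1 and RRM2.

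The group comparison depended on clone 3. Without it, 10 of the 43 genes were called higher by limma (23.3%), where 3.96% of all genes were, and 2 were called lower (4.65%), where 2.23% were. Those higher were CDC6 (1.02, adjusted p = 0.00932), RRM2 (0.69, 0.0136), CCNE2 (0.75, 0.0142), CCNE1 (0.59, 0.0171), GINS2 (0.50, 0.0272), ORC6 (0.49, 0.0352), RFC3 (0.51, 0.0370), UHRF1 (0.45, 0.0393), MCM10 (0.65, 0.0487) and FEN1 (0.40, 0.0488). Those lower were CDK4 (−0.63, 0.0167) and MCM2. The median change over the 43 genes was 0.22 without clone 3 and 0.04 with all clones. Without knockdown clone 1 the counts were 0 higher and 1 lower, where 384 and 323 of all 19775 genes were called. Without clone 2 they were 0 and 0 (all genes 5 and 15). Without any 1 control clone they were also 0 and 0, where 0 higher and 2 or 3 lower were called over all genes. Calls over all genes were thus also fewer in these fits than without clone 3 (784 and 441). With 2 knockdown clones left, a fit without a knockdown clone takes the spread of the group from 2 arrays and the pooled variance. Clone 3 had already been seen to lie below the control mean for 38 of the 43 genes. The calls made without it therefore restate the clone values above and add no separate support.

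Genes beside the members on the chromosome were read in the same way. They were up to 10 genes on each side in RefSeq gene order, among measured genes with a mean above 5. The neighbours of CCNE2 had a median of −0.03 in knockdown clone 3, those of RRM2 −0.08 and those of ORC1 −0.18. For CDKN1A it was 0.32. As group changes, the neighbours of CDK4 had a median of −0.18 and those of MCM2 −0.30, in the direction of the gene itself but smaller, and 0 of the 20 around each were called lower. The neighbours of ORC6 gave 0.22. For some genes the neighbours' median group change came near or past the gene's own. Examples, not a full list, were POLE2 (0.31 against 0.26), PCNA (−0.25 against −0.13) and MCM5 (−0.21 against −0.27). Others were RRM2 (0.17 against 0.04), TYMS (0.15 against 0.0005), CDK6 (0.20 against 0.02) and POLD1 (−0.11 against −0.02). For RFC4 the neighbours' median was −0.22 against −0.35, and for CDC6 0.04 against 0.52. RFC4, RPA2 and MCM3 each had 1 neighbour called in the gene's own direction. The part of neighbours in the values of any gene of the set was not tested.

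Different probe sets gave a check on part of the counts by clone. The 43 genes had 85 probe sets, and 25 genes had more than 1. Of the other probe sets with a mean above 5 for genes past the fold, the sign was the same for 8 of 8 in clone 3, for 6 of 7 in clone 2 and for 5 of 9 in clone 1. ORC1, MCM2, PRIM1, RPA2, UHRF1, CDK4 and CDKN1A, all lower in clone 3, had 1 probe set each. So did ORC6, MCM3, POLE2 and RFC4, past the fold in clone 1 or 2. The other probe sets of E2F2 and CCNE1 lay below that mean. The check did not reach these genes.

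Other genes of the pathway were read from lists named by role. Of 44 other replication genes, 43 were measured, and 1 was called higher and 1 lower (all genes 0.319% and 0.420%). Before adjustment, 10 were higher and 1 lower in limma at p under 0.05, of 1801 and 1516 over all 19775 genes. The called genes were MCMBP, a binding partner of the MCM proteins, and RFC2, a clamp loader subunit. MCMBP read 10.05, 10.11 and 9.96 in the knockdown clones, against 9.48, 9.46 and 9.51 in the control clones, all 3 above the controls (change 0.55, SE 0.08, adjusted p = 0.0480, limma). RFC2 read 9.68, 9.71 and 9.35 in the knockdown clones, against 10.41, 10.29 and 10.45 in the control clones, all 3 below the controls (change −0.80, SE 0.12, adjusted p = 0.0458, limma). Both calls were lost without knockdown clone 2 or any 1 control clone, with adjusted p between 0.0776 and 0.292, and when the RNA quality index entered the fit (0.253 and 0.237). With the mean of all its probe sets MCMBP gave 0.30 and was not called (adjusted p = 0.202). Medians over this list were 0.17, 0.30 and −0.13 in clones 1, 2 and 3. Past the fold, 10 were higher and 2 lower in clone 1 (all genes 5.20% and 3.94%). The counts were 14 and 1 in clone 2 (6.73% and 3.63%), and 1 and 9 in clone 3 (7.22% and 7.34%).

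Of 28 other regulators of the G1/S step, 27 were measured and 0 were called (3 higher and 3 lower in limma before adjustment, at p under 0.05). Their medians were 0.03, 0.15 and −0.05. The smallest p-values belonged to TFDP2, a dimer partner of E2F factors (change −0.76, adjusted p = 0.0684, limma), and to the CDK4 and CDK6 inhibitor CDKN2D (−0.38, adjusted p = 0.140). When all probe sets of a gene were averaged these changes were −0.27 and −0.23, and with the quality covariate −0.49 and −0.20. Without probe sets matching several transcripts CDKN2D gave −0.07. TFDP2 read 7.63, 7.83 and 8.16 in the knockdown clones, against 8.65, 8.65 and 8.60 in the control clones, lowest in clone 1. It was called without knockdown clone 3 (−0.91, adjusted p = 0.00900).

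Mitotic genes, whose transcripts peak later in the cycle, had medians of 0.23, 0.46 and −0.32 in clones 1, 2 and 3 over 24 genes. In clone 1, 4 of them were higher past the fold and 0 lower (all genes 5.20% and 3.94%). In clone 2, 11 were higher and 1 lower (6.73% and 3.63%), and in clone 3, 1 was higher and 5 lower (7.22% and 7.34%). None was called (5 higher and 1 lower in limma before adjustment, at p under 0.05). BUB1, a spindle checkpoint kinase, gave 0.47 (adjusted p = 0.174) and the separase ESPL1 −0.80 (adjusted p = 0.201), and each was called without knockdown clone 3 (0.58 and −0.50). Averaged over its probe sets BUB1 gave 0.09, and with the quality covariate ESPL1 gave −1.30.

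Targets of p53, of which CDKN1A is one, had medians of 0.07, −0.12 and −0.02 over the 17 measured of 20 other targets, with 0 called (0 higher and 3 lower in limma before adjustment, at p under 0.05). PLK3 gave −0.41 (adjusted p = 0.105) and the pro-apoptotic BAX −0.36 (adjusted p = 0.240). PLK3 gave −0.17 averaged over its probe sets, and with the quality covariate PLK3 gave −0.24 and BAX −0.55. In clone 3, where CDKN1A lay at −1.05, 8 of the 17 lay above the control mean and 9 below it.

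**Figure D4:**
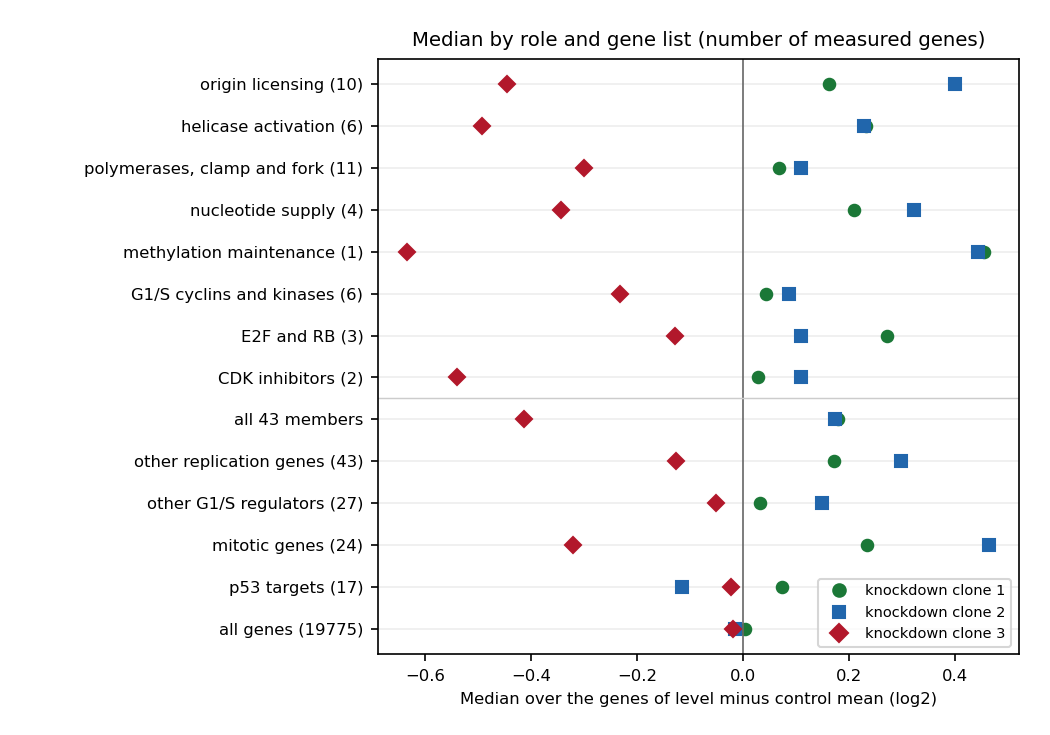
Median over the genes of each role and list of the level minus the control mean (log2, horizontal axis) in each knockdown clone, with the number of measured genes in brackets. In every role clone 3 (diamonds) is the lowest, as in the other replication and mitotic genes, and all genes lie near 0.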

How the data were processed

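Total RNA of 6 clones was labelled from 6 µg by the Affymetrix 3′ IVT Express protocol, per the labels' protocols. The authors deposited log2 values per probe set, and the submitters' processing notes name RMA and Affymetrix Expression Console 1.0 for them; further settings and the genome build are not given in the sources used here. No detection call was used. Array medians were 5.13 to 5.17, and correlations between arrays 0.984 to 0.998.

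From there, 54613 probe sets (without 62 controls) were fitted with limma 3.58.1 in R 4.3.3 (lmFit, eBayes, group term, two-sided), with Benjamini-Hochberg adjustment over all of them and a call at an adjusted p under 0.05. The fit was tested on simulated data. Platform annotation gave 1 symbol to 41091 probe sets, several to 1801 and none to 11721; symbols were updated through RefSeq identifiers for 41037. A gene is its probe set with the highest mean. Each clone is 1 array, and p-values measure the spread between clones of 1 line. The number of arrays limits the precision.

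The 43 members and all lists were chosen with earlier results of these data known. Values in every clone were given for called members, the 4 largest changes each way, the 6 widest ranges between knockdown clones and 7 genes of set role; E2F2, CDK2 and others were added after their values were seen. In other lists, called genes or else the 2 with the smallest p were named. CDKN2C, BBC3, BTG2 and FDXR were not analysed here. In all, 14 alternative settings were tried. Replicate numbers did not pair the clones (correlations of same-numbered deviations −0.046, −0.079 and −0.043).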

Additional observations from a re-analysis of the deposited data

How the results depend on the processing

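The number of genes of the set called higher was 0 in all settings that kept every clone and ranged from 0 to 10 when clones were left out in turn. The number called lower, 1 with all clones, was 2 with array weights or when all probe sets of a gene were averaged. It was 0 with arrays set to the same median, with an intensity trend, with the replicate block and with RNA quality as a covariate. With a clone left out it was 0 to 2. Without probe sets matching several transcripts it was also 0 (34 genes measured). The only probe sets of CDK4 and MCM2 are of that kind, so neither gene was measured there and that setting could not test their calls. Where all clones and its probe set were kept and its call was lost, CDK4 had adjusted p-values of 0.0512 (same median), 0.0543 (trend), 0.186 (replicate block) and 0.320 (quality covariate). MCM2 was called with array weights (adjusted p = 0.0322) and with the mean of probe sets (0.0420). Calls over all genes, 63 higher and 83 lower, were 0 and 3 with the replicate block, 0 and 1 with the quality covariate, 19 and 44 with the trend, 40 and 51 without probe sets matching several transcripts, 97 and 98 above a mean of 5, 110 and 128 with the mean of probe sets, 79 and 70 with the same median and 419 and 295 with array weights. They were 384 and 323, 5 and 15, and 784 and 441 without knockdown clone 1, 2 or 3, and 0 and 2, 0 and 3, and 0 and 2 without control clone 1, 2 or 3. The clone number pairs nothing in the labels, and the block is given for completeness.

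The median change over the set ranged from −0.10 to 0.22 with a clone left out. The median of clone 1 (0.18) was 0.20 with the same median, 0.11 with the mean of probe sets, 0.13 without probe sets matching several transcripts and 0.15 to 0.19 with a control left out. That of clone 2 (0.17) was 0.21, unmoved, 0.14 and 0.15 to 0.20, and that of clone 3 (−0.41) was −0.34 with the mean of probe sets, −0.39 without those matching several transcripts and −0.42 to −0.39 with a control left out. At a limit of 1 log2, 2 genes were higher and 0 lower in clone 1 (all genes 0.501% and 0.551%), 1 and 0 in clone 2 (0.845% and 0.673%), and 0 and 5 in clone 3 (1.47% and 1.75%). Leaving out probe sets that match several transcripts, and with them CDK4 and MCM2, 2 were lower in clone 1 and 0 in clone 2. With a control left out, clone 1 had 7 to 8 higher and 4 lower, clone 2 had 9 to 10 higher and 1 lower, and clone 3 had 0 higher and 13 to 15 lower. The CCNE2 change (−0.03) ranged from −0.48 without knockdown clone 1 to 0.75 without knockdown clone 3. Of the 42 genes not called, 31 changed sign in at least 1 of 14 alternatives. The causes of these shifts were not tested, beyond the fewer genes or clones that some settings hold.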
